A study of Mus musculus with 14 samples.

Results

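The genes described here are 39 ribosome biogenesis genes whose products work in the nucleolus, taken by gene symbol from a deposited table of 23427 genes. All 39 symbols were found once each, and all 39 passed the filter on low values, which asked for 1 FPKM or more in 2 or more libraries of a fit. FPKM is the number of sequenced fragments per length of exon, scaled for the depth of the library, so it can be compared between genes. Only mRNA was measured, so a protein, subunit or factor said below to rise or fall stands for its mRNA. The cells were primary oligodendrocyte precursor cells (OPCs), which make the myelin-forming oligodendrocytes of the brain, isolated from pooled cortices of wild-type C57BL/6J pups at postnatal day 7 by panning on an antibody against Pdgfra. Day0 cells were precursors, and Day3 cells had been moved toward oligodendrocytes by taking away PDGF-AA and adding the thyroid hormone T3. At Day3 there were 6 groups. They were non-treated cells, mock-transfected cells, cells with the non-targeting NC siRNA #1 or NC siRNA #2, cells with an siRNA against Secisbp2l (siSbp2l), which encodes the RNA-binding protein Sbp2l, and cells with an siRNA against Pdgfra (siPdgfra), the receptor for PDGF-AA. Each of the 7 groups had 2 libraries, which the methods call independent replicates of cultured cells, so p-values measure the spread between these pairs. The materials list several siRNAs against Sbp2l, and neither they nor the labels say which of them, or whether a mix, went into these libraries.

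Ribosomes are built in the nucleolus. RNA polymerase I transcribes a long ribosomal RNA precursor there, small nucleolar ribonucleoproteins (snoRNPs) guide chemical marks onto it, and processing and assembly factors cut and fold it into the small and large subunits together with the ribosomal proteins. Growing and dividing cells make many ribosomes, and the transcription factor Myc is known to raise the genes of this pathway. The 39 genes fall into 6 roles. There are 2 RNA polymerase I subunits, 3 proteins of the box C/D snoRNPs, 4 of the box H/ACA snoRNPs, 11 factors of small subunit processing and assembly, 14 of large subunit processing and assembly, and 5 multifunctional nucleolar proteins.

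The libraries held 6563346 to 31656890 fragments, an estimate read from the steps between low FPKM values, and the shallowest was NC siRNA #2 replicate 2. The lowest member in any library was Nop10 there, at about 31.0 fragments, and no other library held a member under 50 fragments. Secisbp2l was at 3.91 and 3.82 FPKM in siSbp2l and between 135 and 255 FPKM in the other Day3 libraries. Pdgfra was at 3.30 and 2.69 FPKM in siPdgfra and between 32.4 and 150 FPKM in the other Day3 libraries, so both targets were lowest in the libraries labelled for them. The summed level of 11 oligodendrocyte markers was 473 to 517 FPKM at Day0, 5210 to 9407 FPKM in the 4 Day3 control groups, 4651 to 5362 FPKM in siPdgfra and 1866 to 2085 FPKM in siSbp2l. The 6 OPC markers summed to 822 and 853 FPKM at Day0 and to 404 to 682 FPKM in the 4 Day3 control groups. They summed to 535 to 566 FPKM in siSbp2l and 258 to 291 FPKM in siPdgfra, whose target Pdgfra is in the list. Of the markers of other cells, 6 of 7 microglial, 6 of 7 endothelial or mural and 6 of 6 fibroblast genes stayed under 1 FPKM in every library. The astrocyte list summed to 47.8 to 177 FPKM, with Aqp4 and Gja1 under 1 FPKM throughout, and the neuron list to 37.3 to 278 FPKM, with Stmn2 under 1 FPKM throughout. Both lists varied between groups, and their part in the results was not tested. The 2 non-treated libraries stood apart from each other: 8 of the 39 members were over 1.5-fold higher in replicate 1 and 1 was over 1.5-fold higher in replicate 2, against at most 1 member in any other pair.

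**Figure D1:**
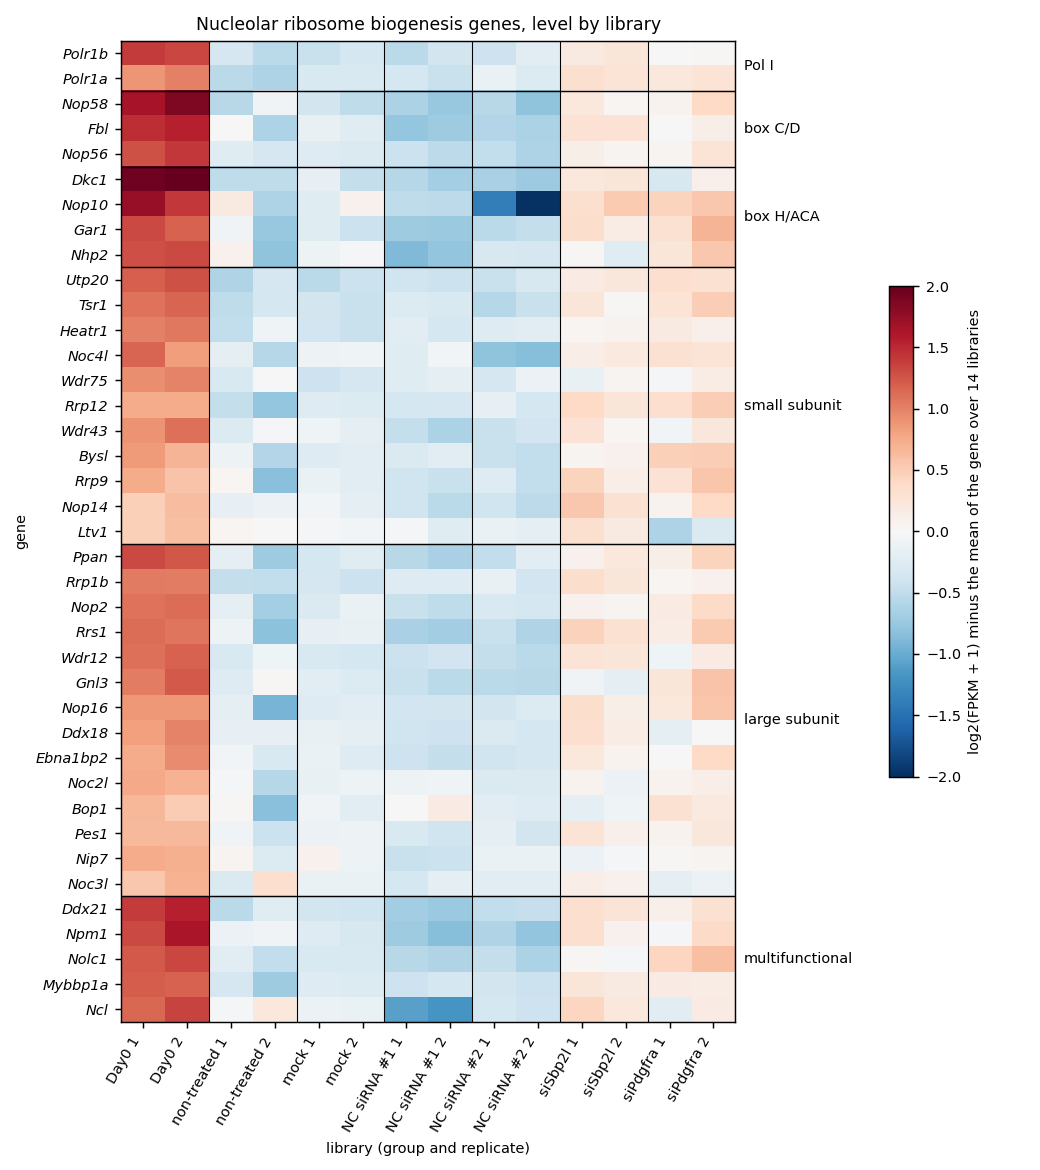
Level of the 39 genes (rows, grouped by role and ordered within a role by the change from Day0 to Day3) in the 14 libraries (columns), as log2(FPKM + 1) minus the mean of each gene over the libraries; colours stop at 2 on either side. The Day0 columns are the highest for all 39 genes by group mean, and the siSbp2l and siPdgfra columns lie mostly above the 8 columns of the Day3 controls.

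The step from precursor to differentiating cell was addressed by setting the non-treated and mock Day3 groups together against Day0, neither with siRNA. All 39 genes fell, and in all 39 both Day0 libraries lay above all 4 Day3 libraries. The median log2 fold change of the members was -1.39, against -0.09 over all genes tested, and 31 of the 39 fell by at least 2-fold. Among all genes tested, 39.7% fell by adjusted p under 0.05 (limma with Benjamini-Hochberg adjustment), 14.4% fell by at least 2-fold as well, and 40.2% had both Day0 libraries above the 4 Day3 ones. A log2 fold change here is a difference of log2(FPKM + 1), and so it understates the changes of low genes. The 11 oligodendrocyte markers all rose and the 14 genes of DNA replication and mitosis all fell between the same libraries. Of the 6 OPC markers 4 fell and 2, Gpr17 and Lhfpl3, rose. The part of these 3 lists in the result was not tested. In bulk cultures, fewer cells with a transcript and less of it per cell cannot be told apart.

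Both subunits of RNA polymerase I fell. Polr1a, its largest subunit, was at 22.2 and 24.5 FPKM at Day0, at 7.72 and 7.21 FPKM in non-treated cells and at 9.22 FPKM in both mock libraries, and fell by 1.39 on the log2 scale (SE 0.08, adjusted p = 2.94e-08). Polr1b, which forms the active centre with Polr1a, went from 20.9 and 19.9 FPKM to between 4.72 and 5.60 FPKM and fell by 1.78 (SE 0.10, adjusted p = 1.50e-08). The 2 Day0 libraries were close to each other for both genes and no Day3 library came near them.

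The snoRNP proteins Dkc1 and Nop58 gave the largest falls of all 39. Dkc1 (mm10 chrX:75095854-75109776, plus strand), the pseudouridine synthase of the box H/ACA particles, was at 49.1 and 54.9 FPKM at Day0 and between 8.14 and 10.7 FPKM in the 4 Day3 libraries, a log2 fold change of -2.44 (SE 0.13, adjusted p = 1.33e-08). Its partner Nhp2 went from 108 and 111 FPKM to 46.7 and 24.8 FPKM in non-treated and 40.6 and 43.3 FPKM in mock cells, a log2 fold change of -1.51 (SE 0.19, adjusted p = 2.90e-05). For Nhp2 the gap within the non-treated pair was wider than that between the non-treated and mock means. Gar1 and Nop10, the other core proteins of the particle, had log2 fold changes of -1.63 and -1.73. Among the box C/D proteins, Nop58, a scaffold of the particle, went from 117 and 136 FPKM to between 24.7 and 34.9 FPKM, a log2 fold change of -2.13 (SE 0.15, adjusted p = 1.72e-07). Fbl (mm10 chr7:28169748-28179269, plus strand), the methyltransferase fibrillarin, went from 155 and 164 FPKM to 55.8 and 35.5 FPKM in non-treated and 49.5 and 46.6 FPKM in mock cells, a log2 fold change of -1.76 (SE 0.14, adjusted p = 4.83e-07). The third protein, Nop56, had a log2 fold change of -1.62.

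All factors of subunit assembly fell. The 11 small subunit factors had a median log2 fold change of -1.19, from -1.71 for Utp20, a large scaffold protein of early precursors, to -0.55 for Ltv1, a factor of late small subunit maturation. Ltv1 (mm10 chr10:13178638-13193137, minus strand) was the most abundant of them over all libraries and changed least of all 39 members, from 37.8 and 41.3 FPKM at Day0 to between 25.8 and 27.6 FPKM at Day3 (SE 0.10, adjusted p = 0.000464). The 14 large subunit factors had a median of -1.17, from -1.66 for Ppan to -0.68 for Noc3l. Gnl3, the GTP-binding protein nucleostemin known from stem and dividing cells, went from 63.6 and 73.4 FPKM to between 25.5 and 31.5 FPKM, a log2 fold change of -1.30 (SE 0.11, adjusted p = 1.05e-06). Bop1, Pes1 and Wdr12, which work as a complex, had log2 fold changes of -0.86, -0.83 and -1.40. Bop1 was at 51.2 and 46.0 FPKM at Day0 and between 17.5 and 32.4 FPKM at Day3, Pes1 at 49.0 and 49.2 FPKM and then 22.8 to 29.4 FPKM, and Wdr12 at 21.0 and 22.1 FPKM and then 7.02 to 8.64 FPKM. The 3 genes thus kept their distance from Day0 in every Day3 library without siRNA, and Bop1 had the widest spread.

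The other assembly factors gave the same picture. In the small subunit group, Tsr1, a late maturation factor, went from 42.0 and 44.7 FPKM to 13.3 to 14.9 FPKM. Rrp9, a protein of the U3 snoRNP, went from 27.0 and 23.7 FPKM to 8.32 to 16.1 FPKM, with both ends of that range in the non-treated pair. Heatr1, a scaffold of the early precursor, went from 19.0 and 19.8 FPKM to 6.07 to 8.43 FPKM. In the large subunit group, Nop2 went from 34.5 and 35.2 FPKM to 9.52 to 14.4 FPKM, and Nop16 from 24.5 and 24.3 FPKM to 6.29 to 11.1 FPKM. Nip7 was among the least changed, from a Day0 mean of 18.3 FPKM to 8.71 to 11.4 FPKM. No Day3 library of these genes reached a Day0 value.

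The 5 multifunctional proteins had a median log2 fold change of -1.61. Npm1 (mm10 chr11:33152498-33163206, minus strand), the histone chaperone nucleophosmin and the most abundant member, was at 841 and 1043 FPKM at Day0 and between 270 and 322 FPKM in the 4 Day3 libraries, a log2 fold change of -1.66 (SE 0.14, adjusted p = 7.28e-07). Npm1 has processed pseudogene copies, and how fragments shared with copies were counted is not given in the sources used here. The RNA helicase Ddx21 went from 93.5 and 105 FPKM to between 23.7 and 29.4 FPKM, a log2 fold change of -1.86 (SE 0.10, adjusted p = 1.56e-08). Ncl, the RNA-binding protein nucleolin, had the smallest change of the 5, at -1.27.

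The count of 39 held with either Day3 group alone, where 38.6% of all genes were lower for non-treated and 36.6% for mock cells. The members' median was -1.43 for non-treated cells alone and -1.36 for mock cells alone. With both groups but without non-treated replicate 2 it was -1.33. The methods name a single sequencer, a HiSeq, for the knockdown series, to which these libraries belong.

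**Figure D2:**
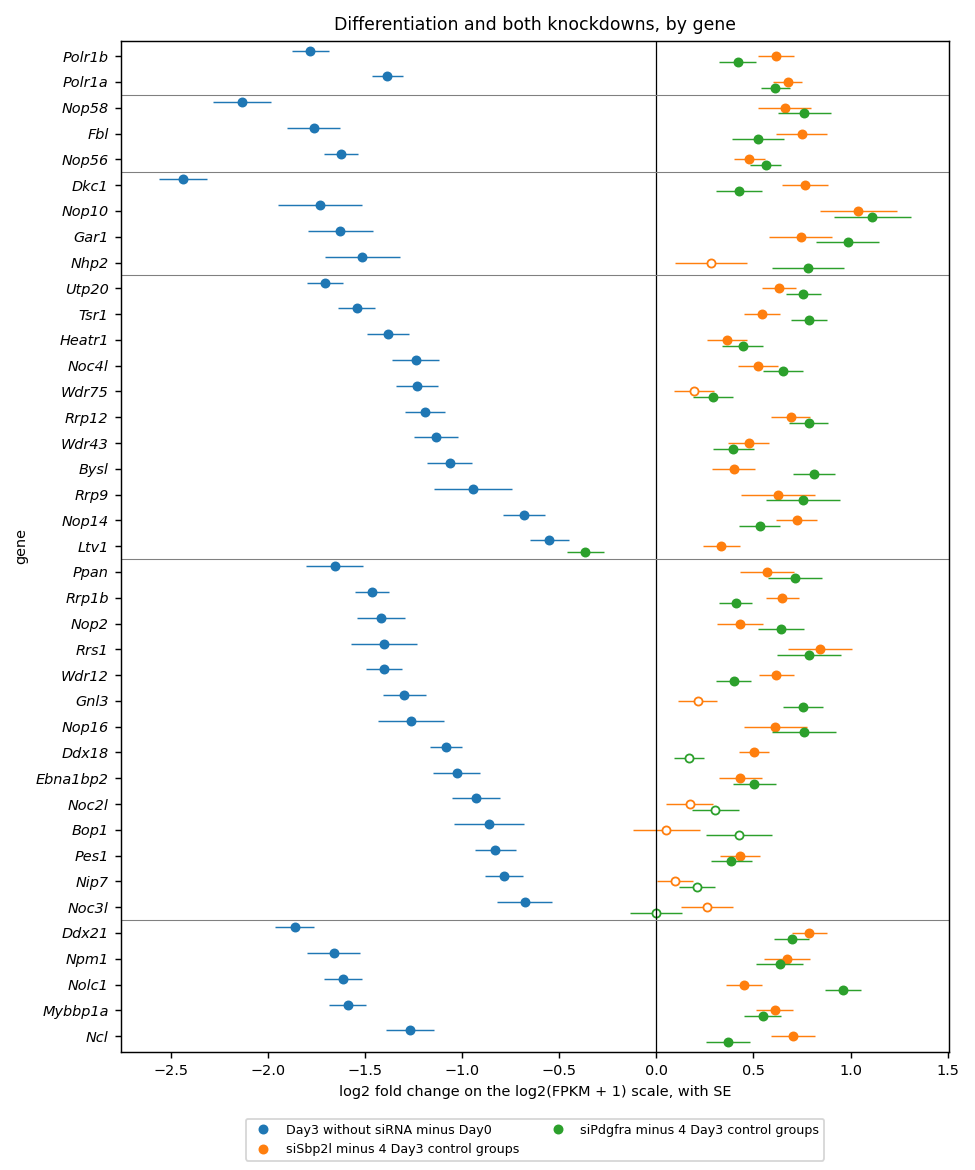
Log2 fold change of each of the 39 genes (vertical axis, grouped by role) for Day3 cells without siRNA minus Day0 (blue), siSbp2l minus the 4 Day3 control groups (orange) and siPdgfra minus the same controls (green), with bars of 1 SE; filled points passed adjusted p under 0.05. All 39 blue points lie below 0, all 39 orange points lie above 0 (32 of them filled), and Ltv1 is the filled green point below 0.

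The cells that had received siSbp2l were set against the mean of the 4 Day3 control groups (non-treated, mock, NC siRNA #1 and NC siRNA #2), to ask how loss of Sbp2l bears on these genes during differentiation. Of the 39 members, 32 were higher, as were 35.5% of all genes, and none was lower, where 17.9% of all genes were. No member had a fitted value under 0 in limma, so none was lower at an unadjusted p under 0.05 either. The members' median log2 fold change was 0.57 against 0.15 over all genes, so the median lay 0.42 above that of the table. Because the whole table was shifted upward, the libraries were also scaled to a common median ratio. Then the median of the members was 0.42 and 29 members were higher, while the calls over all genes went from 4135 higher and 2091 lower to 2635 higher and 2854 lower. In 31 members both siSbp2l libraries lay above all 8 control libraries, as in 30.8% of all genes. Each member changed by less than 2-fold except Nop10. The oligodendrocyte markers moved in the same libraries, with 10 of 11 lower and a median of -1.97, and their part in the result was not tested.

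By role, both polymerase subunits, all 3 box C/D proteins, 3 of 4 box H/ACA proteins, 10 of 11 small subunit factors, 9 of 14 large subunit factors and all 5 multifunctional proteins were higher. Polr1a was at 14.8 and 14.3 FPKM against 7.21 to 10.4 FPKM in the 8 controls, a log2 fold change of 0.68 (SE 0.08, adjusted p = 4.73e-05). Fbl was at 67.5 and 67.4 FPKM against 32.1 to 55.8 FPKM, a log2 fold change of 0.75 (SE 0.13, adjusted p = 0.00101). Dkc1 was at 14.1 and 14.5 FPKM against 6.91 to 10.7 FPKM, a log2 fold change of 0.77 (SE 0.12, adjusted p = 0.00044). For these 3 genes the groups did not overlap, and both knockdown libraries stayed well under the Day0 values.

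Nop10 (mm10 chr2:112261969-112262898, plus strand), a short protein of the box H/ACA core, gave the largest value, at 37.0 and 42.9 FPKM against 6.80 to 33.6 FPKM, a log2 fold change of 1.04 (SE 0.20, adjusted p = 0.00169). Its controls were uneven, since NC siRNA #2 held 10.7 and 6.80 FPKM where the other control groups held 18.9 to 33.6 FPKM. Rrs1, a regulator of ribosome assembly needed for the large subunit, was at 29.8 and 26.6 FPKM against 11.6 to 19.8 FPKM, a log2 fold change of 0.84 (SE 0.16, adjusted p = 0.00176). Ddx21 was at 44.3 and 41.9 FPKM against 20.6 to 29.4 FPKM, a log2 fold change of 0.79 (SE 0.09, adjusted p = 6.66e-05). Npm1 was at 424 and 357 FPKM against 185 to 322 FPKM, a log2 fold change of 0.67 (SE 0.12, adjusted p = 0.00102). Ltv1 was at 33.7 and 30.8 FPKM against 22.6 to 27.6 FPKM, a log2 fold change of 0.33 (SE 0.10, adjusted p = 0.0141). In all of these both knockdown libraries lay above all 8 controls. Against mock cells alone the log2 fold change was 0.49 for Nop10 (adjusted p = 0.143) and 0.54 for Rrs1 (adjusted p = 0.057), and against non-treated cells alone it was 0.64 for Nop10 (adjusted p = 0.0592) and 0.30 for Npm1 (adjusted p = 0.124). The Ltv1 call was lost with the median-ratio scaling (0.17, adjusted p = 0.171), with the upper-quartile scaling (0.21, adjusted p = 0.105) and without siSbp2l replicate 1 (0.27, adjusted p = 0.156), and it did not pass against non-treated alone (0.23, adjusted p = 0.132) or mock alone (0.30, adjusted p = 0.072).

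The 7 members that did not pass were Bop1, Gnl3, Nhp2, Nip7, Noc2l, Noc3l and Wdr75. Nhp2 was at 44.4 and 36.8 FPKM, inside the control range of 23.3 to 46.7 FPKM, with a log2 fold change of 0.28 (SE 0.19, adjusted p = 0.224). The 2 libraries of Gnl3, at 29.3 and 26.9 FPKM, fell inside the control range of 20.8 to 31.5 FPKM, for a log2 fold change of 0.21 (SE 0.10, adjusted p = 0.103). Bop1 had the smallest log2 fold change, 0.05. The number of members that were higher depended on the control. It was 25 against non-treated cells alone, 19 against mock alone, 32 against NC siRNA #1 alone and 29 against NC siRNA #2 alone, where 33.1%, 27.2%, 30.6% and 25.4% of all genes were higher. With the non-treated group left out it was 37, with 45.0% of all genes higher.

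**Figure D3:**
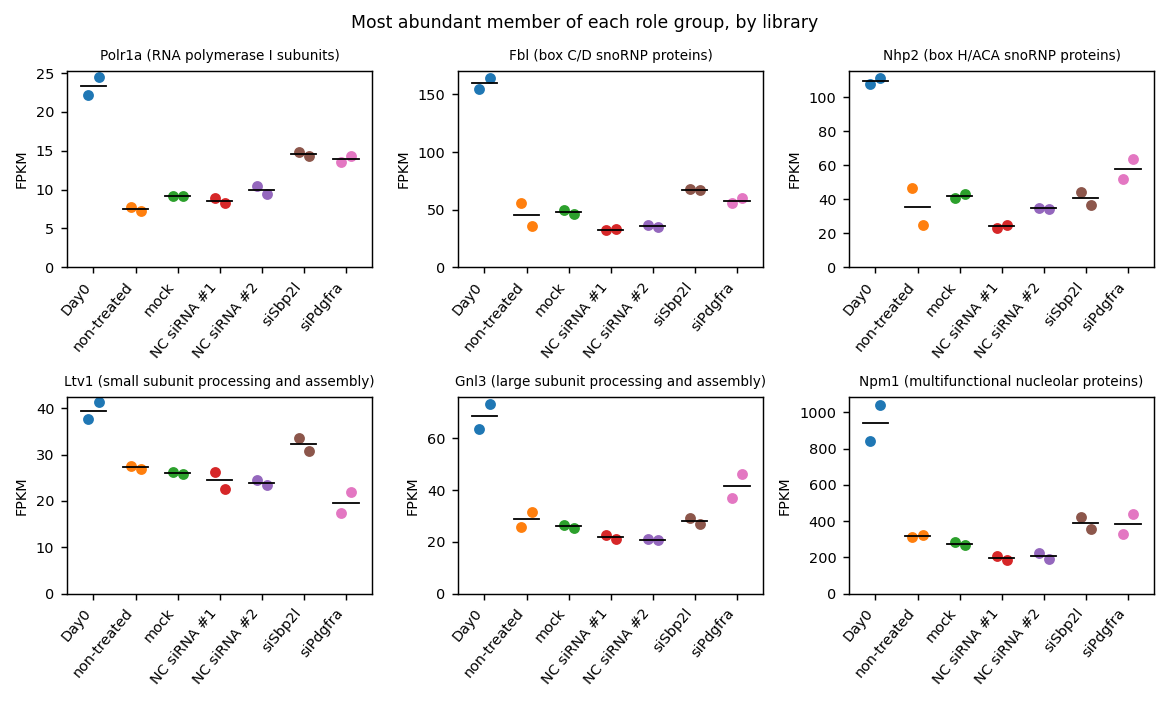
FPKM (linear axis from 0) of the most abundant member of each role in the 2 libraries of every group (points) with the group mean (line). Day0 is the highest group in all 6 panels, siSbp2l and siPdgfra lie above the 8 controls for Polr1a and Npm1, and for Ltv1 the siPdgfra points, at 17.3 and 21.8 FPKM, are the lowest.

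The cells with siPdgfra were set against the same 4 control groups. Since the 2 knockdowns share these 8 control libraries, their values are given side by side and not as independent evidence. Of the 39 members, 33 were higher and 1, Ltv1, was lower, with 32.4% of all genes higher and 23.0% lower. The members' median was 0.56 against 0.09 over all genes, and 30 members had both siPdgfra libraries above all 8 controls, as did 26.5% of all genes. With the median-ratio scaling 31 were higher and 1 was lower, with a median of 0.47, where 26.2% of all genes were higher and 27.6% lower. The 2 siPdgfra libraries differed in level, and replicate 2 was the higher in 34 of the 39 members. The count higher was 21 without siPdgfra replicate 2 (21.3% of all genes), 31 without replicate 1 (22.4%) and 37 with the non-treated group left out (40.9%). Among the oligodendrocyte markers 5 of 11 were lower and 4 higher. All 6 OPC markers were lower, among them Pdgfra, which is the target of this siRNA. The part of both lists in the result was not tested.

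The mRNAs of all 4 box H/ACA proteins were higher. Nop10 was at 40.5 and 43.4 FPKM, a log2 fold change of 1.11 (SE 0.20, adjusted p = 0.00109). Gar1 was at 15.2 and 19.9 FPKM against 6.78 to 11.5 FPKM in the controls, a log2 fold change of 0.98 (SE 0.16, adjusted p = 0.000621). Nhp2 was at 52.0 and 63.8 FPKM, above its control range, with a log2 fold change of 0.78 (SE 0.19, adjusted p = 0.00526). Both polymerase subunits and all 3 box C/D proteins were higher as well. Polr1a was at 13.5 and 14.3 FPKM, a log2 fold change of 0.61 (SE 0.08, adjusted p = 8.78e-05). Fbl was at 55.5 and 59.8 FPKM, with the lower of these under the highest control of 55.8 FPKM, and had a log2 fold change of 0.52 (SE 0.13, adjusted p = 0.00739).

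Nolc1, a chaperone of snoRNPs, was at 48.9 and 55.5 FPKM against 22.9 to 31.2 FPKM, a log2 fold change of 0.96 (SE 0.09, adjusted p = 1.73e-05). Npm1 was at 328 and 438 FPKM, both above the highest control of 322 FPKM, with a log2 fold change of 0.63 (SE 0.12, adjusted p = 0.00141). Gnl3 was at 36.9 and 46.3 FPKM and clear of its controls, and its log2 fold change was 0.75 (SE 0.10, adjusted p = 0.000176). Rrs1 was at 23.5 and 31.0 FPKM, a log2 fold change of 0.79 (SE 0.16, adjusted p = 0.00253). Bysl, a factor of small subunit maturation, was at 14.9 and 15.1 FPKM against 6.62 to 9.70 FPKM, a log2 fold change of 0.81 (SE 0.11, adjusted p = 0.000181). These groups did not overlap. Without siPdgfra replicate 2, the calls of Rrs1 (0.60, adjusted p = 0.0569), Fbl (0.47, adjusted p = 0.0792) and Nhp2 (0.64, adjusted p = 0.0817) were lost, and against mock cells alone those of Fbl (0.26, adjusted p = 0.24), Nhp2 (0.45, adjusted p = 0.149), Nop10 (0.56, adjusted p = 0.0977) and Rrs1 (0.49, adjusted p = 0.0827). Against non-treated cells alone the calls of Npm1 (0.26, adjusted p = 0.173) and Fbl (0.36, adjusted p = 0.0943) were lost. Gar1, Nolc1, Bysl, Gnl3 and Polr1a passed under every alternative tried.

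Ltv1 went the other way. It was at 17.3 and 21.8 FPKM against 22.6 to 27.6 FPKM, a log2 fold change of -0.37 (SE 0.10, adjusted p = 0.00869), and it was the only member whose lowest group mean was a knockdown. The call was lost without siPdgfra replicate 1, where the log2 fold change was -0.21 (adjusted p = 0.159), and against NC siRNA #1 alone (-0.31, adjusted p = 0.0581) or NC siRNA #2 alone (-0.29, adjusted p = 0.0779). The 5 members that did not pass were Bop1, Ddx18, Nip7, Noc2l and Noc3l, with log2 fold changes from 0.00 for Noc3l to 0.43 for Bop1.

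The direct difference between siSbp2l and siPdgfra, which is also the test of whether the effects of the 2 knockdowns differ, passed for 5 members, 2 higher and 3 lower in siSbp2l. Of all genes 28.5% were higher and 23.4% lower. Ltv1 was higher in siSbp2l, with a log2 fold change of 0.70 (SE 0.12, adjusted p = 0.000826). Ddx18, an RNA helicase of large subunit assembly, was at 32.4 and 28.5 FPKM in siSbp2l and 22.6 and 25.4 FPKM in siPdgfra, a log2 fold change of 0.33 (SE 0.10, adjusted p = 0.0164). Gnl3 (log2 fold change -0.54, SE 0.13, adjusted p = 0.00556), Nolc1 (-0.51, SE 0.12, adjusted p = 0.00453) and Bysl, at 10.9 and 11.1 FPKM in siSbp2l (-0.41, SE 0.14, adjusted p = 0.0305), were lower in siSbp2l.

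For the other 34 members no difference passed the threshold, which does not show that the knockdowns act alike. The log2 fold change was 0.04 (SE 0.15) for Npm1, 0.06 (SE 0.10) for Polr1a, 0.22 (SE 0.17) for Fbl and -0.50 (SE 0.23) for Nhp2. The median over the 39 was -0.08. The count depended on the non-treated libraries, and was 15 members (8 higher and 7 lower) with that group left out or with either of its libraries left out, and 3 without siSbp2l replicate 1 or without siPdgfra replicate 1. The share of all genes called in either direction moved with it, from 52.0% to 68.6% with the non-treated group left out and to 38.2% and 39.4% without those replicates. Ltv1 and Nolc1 passed with any single library left out. Bysl was lost without any one of the 4 knockdown libraries, Ddx18 without replicate 1 of either knockdown or with the median-ratio scaling, and Gnl3 without siPdgfra replicate 2.

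**Figure D4:**
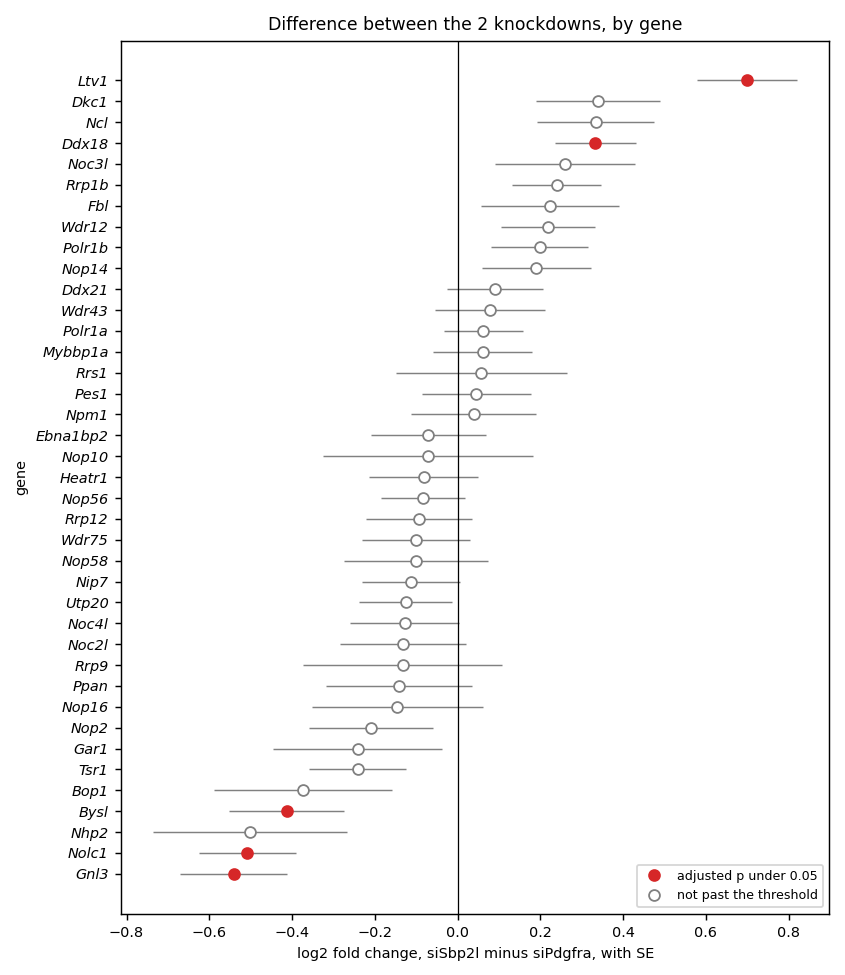
Log2 fold change of siSbp2l minus siPdgfra for each of the 39 genes with bars of 1 SE; red points passed adjusted p under 0.05. Ltv1 and Ddx18 lie on the right, Gnl3, Nolc1 and Bysl on the left, and the other 34 genes are open points.

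The knockdown cells did not hold the precursor level of these genes. Both Day0 libraries lay above both siPdgfra libraries in 39 of 39 members and above both siSbp2l libraries in 38 of 39, against 43.5% and 38.9% of all genes. The exception was Nop14, at 29.1 and 32.1 FPKM at Day0 and at 30.2 and 25.8 FPKM in siSbp2l. Relative to the Day0 mean of each gene, the median level of the members on the log2(FPKM + 1) scale was -1.41 in non-treated, -1.34 in mock, -1.50 in NC siRNA #1, -1.52 in NC siRNA #2, -0.91 in siSbp2l and -0.86 in siPdgfra. The medians of the 8 single control libraries ran from -1.54 to -1.29, and those of the 4 knockdown libraries from -0.95 to -0.77. By group mean, Day0 was the highest group for all 39 members, and the lowest was NC siRNA #1 for 20, NC siRNA #2 for 9, non-treated for 6, mock for 3 and siPdgfra for 1.

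Few members differed between the 2 control siRNAs. Between NC siRNA #2 and NC siRNA #1, 1 member was higher (10.8% of all genes) and 2 were lower (10.1% of all genes). Together these calls were under the 21.0% of all genes called in either direction. Ncl was at 68.2 and 64.7 FPKM with NC siRNA #2 and at 40.6 and 37.8 FPKM with NC siRNA #1, a log2 fold change of 0.75 (SE 0.14, adjusted p = 0.00432). Nop10 was at 10.7 and 6.80 FPKM against 20.6 and 20.2 FPKM, a log2 fold change of -1.17 (SE 0.25, adjusted p = 0.00877), and its lowest value came from the shallowest library, without which the value was -0.88 (adjusted p = 0.0889). Noc4l, a small subunit factor, was at 6.31 and 6.05 FPKM against 9.73 and 11.3 FPKM, a log2 fold change of -0.68 (SE 0.13, adjusted p = 0.00484). The most abundant member of each role was Polr1a, Fbl, Nhp2, Ltv1, Gnl3 or Npm1. They differed by 0.19, 0.13, 0.51, -0.03, -0.06 and 0.08 on the log2 scale, none past the threshold. The count was 1 without NC siRNA #1 replicate 2, where 11.6% of all genes were called, and 9 with the non-treated group or either of its libraries left out, where 41.0% to 41.1% were, against 21.0% with all libraries.

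Against the mean of the non-treated and mock groups, both NC siRNAs together had 8 lower members (11.8% of all genes were lower) and none higher by limma. At an unadjusted p under 0.05, 1 member, Rrp1b, was higher. The median of the members was -0.19 against 0.03 over all genes. With an upper-quartile scaling 14 members were lower, and the calls over all genes went from 1897 higher and 1380 lower to 1495 higher and 1819 lower. Among the members past the threshold, the largest differences were those of Nop10 (log2 fold change -0.95, SE 0.18, adjusted p = 0.00347), Ncl (-0.74, SE 0.10, adjusted p = 0.000547), Npm1 (-0.55, SE 0.11, adjusted p = 0.00389), Fbl (-0.42, SE 0.12, adjusted p = 0.0236) and Wdr43 (-0.34, SE 0.09, adjusted p = 0.0231), and Gnl3, Nop14 and Nop56 were lower too. Ncl was at 84.3 and 101 FPKM in non-treated and 80.4 and 79.1 FPKM in mock cells. Wdr43, a small subunit factor, was between 20.6 and 24.6 FPKM without siRNA and between 15.9 and 19.0 FPKM with the NC siRNAs. In both genes every library with an NC siRNA lay under every library without siRNA. The calls of Fbl and Wdr43 were lost in 6 and 5 of the 12 fits that left out 1 library. The number lower was 17 without the non-treated group (19.1% of all genes), 14 without its replicate 1 (20.5%) and 20 without its replicate 2 (23.8%). Without replicate 1, 5 members were higher (Bop1, Noc2l, Nop16, Polr1a and Rrp12, named after their values were seen), with 32.5% of all genes higher, and without replicate 2 Heatr1 was, with 26.8%. The number lower was 3 or 4 without either mock library, NC siRNA #1 replicate 2 or either NC siRNA #2 library, where 7.60% to 8.38% of all genes were lower.

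Other genes of the pathway, outside the 39, had medians nearer to 0. From Day0 to Day3, 10 of 14 further genes of the RNA polymerase I machinery, 36 of 39 further small subunit factors and 33 of 38 further large subunit factors fell, with medians of -0.59, -0.65 and -0.85, and 1, Dhx37, was higher. In siSbp2l 5 of 14 (Polr1e, Taf1a, Taf1b, Tcof1 and Ttf1), 24 of 39 and 27 of 38 were higher, where the medians were 0.34, 0.36 and 0.43, and Dhx37 and Pno1 were lower. In siPdgfra 6 of 14, 19 of 39 and 18 of 38 were higher, with medians of 0.29, 0.23 and 0.25, and Aatf, Dhx37, Nol10 and Utp15 were lower. Of all genes tested, 39.7% fell at Day3, 35.5% were higher and 17.9% lower in siSbp2l, and 32.4% were higher and 23.0% lower in siPdgfra. The 5 of 14 polymerase genes higher in siSbp2l were thus close to the share of all genes. The single genes in this paragraph were picked out after their values were seen.

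The ribosomal proteins are the structural partners of the rRNA. Single genes named from the next 2 lists were picked after their values were seen. Of 77 cytosolic ribosomal protein genes tested, 76 fell from Day0 to Day3 (median -1.20), 52 were higher and 4 lower in siSbp2l (median 0.48), and 56 were higher in siPdgfra (median 0.54). The 4 lower ones were Rpl8, Rpl11, Rpl15 and Rpl22l1, and this family has many pseudogene copies. Of 76 mitochondrial ribosomal protein genes, 55 fell at Day3 (median -0.56), 16 were higher and 3 lower in siSbp2l (median 0.06), and 40 were higher and 3 lower in siPdgfra (median 0.33). The lower ones were Mrpl21, Mrpl50 and Mrps17 in siSbp2l and Mrpl10, Mrps16 and Mrps23 in siPdgfra. Of all genes tested, 39.7% fell at Day3, 35.5% were higher and 17.9% lower in siSbp2l, and 32.4% were higher and 23.0% lower in siPdgfra. The mitochondrial genes were thus higher in siSbp2l less often than genes in general, and their median lay under the 0.15 of all genes.

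Genes of DNA replication and mitosis, which mark dividing cells, had medians of opposite sign in the 2 knockdowns. All 14 fell from Day0 to Day3, with a median of -3.72. In siSbp2l 9 of 14 were lower and 1, Mcm6 (named after its value was seen), was higher, with a median of -0.71. In siPdgfra 12 of 14 were higher, with a median of 0.63. The direct difference, siSbp2l minus siPdgfra, was lower for 11 of 14, with a median of -1.39, where the 39 nucleolar genes had a median of -0.08. Their summed level was 97.0 and 99.7 FPKM in siSbp2l, 143 and 153 FPKM in siPdgfra, 81.5 to 96.7 FPKM with the NC siRNAs, 163 to 179 FPKM without siRNA and 1557 to 1628 FPKM at Day0. In siSbp2l the summed level was thus inside the range of the control groups, close to the NC siRNAs and under the cells without siRNA. In siPdgfra the sum was inside that range too, above the NC siRNAs and under the cells without siRNA. The control groups themselves differed: with both NC siRNAs against no siRNA, 13 of 14 were lower (11.8% of all genes), with a median of -1.18. Of all genes tested, 39.7% fell at Day3, 17.9% were lower in siSbp2l, 32.4% were higher in siPdgfra and 23.4% were lower in the direct difference.

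**Figure D5:**
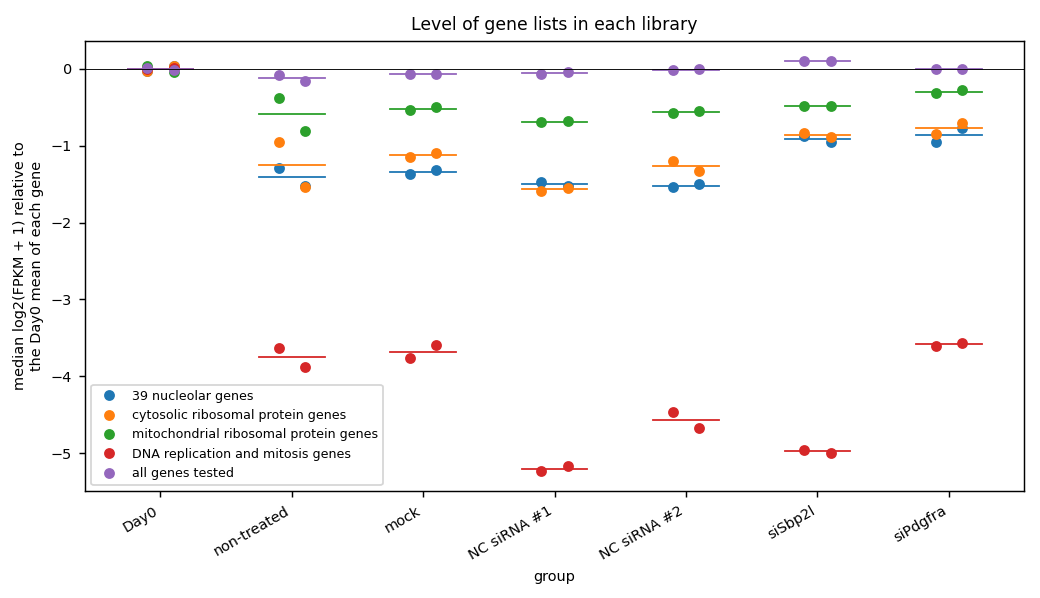
Median over each gene list of log2(FPKM + 1) relative to the Day0 mean of the gene, in the 2 libraries of every group (points) with the group mean (line). The 39 nucleolar genes and the cytosolic ribosomal protein genes are higher in siSbp2l and siPdgfra than in the 4 Day3 controls. The DNA replication and mitosis genes lie near -5 in siSbp2l and near -3.6 in siPdgfra. In the controls they lie at -5.20 (NC siRNA #1), -4.58 (NC siRNA #2), -3.76 (non-treated) and -3.68 (mock).

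Myc and its partners were the regulators examined. Myc was at 93.7 and 91.4 FPKM at Day0, at 24.8, 16.3, 22.9 and 25.9 FPKM in non-treated and mock cells, at 9.45 and 10.0 FPKM with NC siRNA #1 and at 21.1 and 19.4 FPKM with NC siRNA #2. It was at 41.9 and 41.0 FPKM in siSbp2l and at 28.5 and 27.5 FPKM in siPdgfra. Every Day3 library lay under Day0, and all 4 knockdown libraries lay above all 8 controls. The log2 fold change was -2.02 for Day3 against Day0 (SE 0.13, adjusted p = 9.98e-08), 1.18 for siSbp2l against the controls (SE 0.13, adjusted p = 4.08e-05), 0.64 for siPdgfra (SE 0.13, adjusted p = 0.00204), though 0.20 against mock cells alone (adjusted p = 0.354), and 0.55 for siSbp2l minus siPdgfra (SE 0.16, adjusted p = 0.0162).

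Mycn, a relative of Myc, was low throughout but stood apart in siPdgfra, at 9.77 and 9.94 FPKM, against 1.77 and 1.97 FPKM in siSbp2l and 0.848 to 2.81 FPKM in the control libraries. The fit gave 2.10 in siPdgfra (SE 0.10, adjusted p = 2.53e-07), 0.17 in siSbp2l (SE 0.10, adjusted p = 0.172) and -1.92 for siSbp2l minus siPdgfra (SE 0.13, adjusted p = 1.84e-06). Mycl1 rose from 2.17 and 1.82 FPKM at Day0 to between 17.2 and 23.3 FPKM in cells without siRNA (log2 fold change 2.76) and was lower in siSbp2l (-1.80) and in siPdgfra (-0.72). Max, the partner that these proteins bind DNA with, was higher in siSbp2l (0.41) and lower in siPdgfra (-0.60).

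The members of the network that oppose Myc were mostly higher at Day3, with log2 fold changes of 1.53 for Mxd1, 1.88 for Mxd4, 2.71 for Mxi1 and 0.56 for Mnt, while Mxd3, which is known from dividing cells, had -2.87. Mlx was lower at -0.41, and Max (-0.23) and Mga (-0.32) did not pass. In siSbp2l, Mnt (0.66) and Mga (0.41) were higher and Mxd3 (-0.39) was lower, though not against NC siRNA #1 alone (0.21). Mxd3 was near the floor at Day3, at 0.228 and 0.355 FPKM in siSbp2l and at most 1.42 FPKM in the controls. Mlx (-0.20), Mxi1 (0.08), Mxd4 (0.18) and Mxd1 (-0.04) did not pass in siSbp2l. In siPdgfra, Mnt (0.75) was higher and Mxi1 (-1.36) was lower, and Mlx (-0.10), Mxd3 (0.19), Mga (-0.13), Mxd4 (0.07) and Mxd1 (0.16) did not pass. Levels of mRNA alone were measured, and no relation between Myc and the 39 genes was tested.

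Myc with Max binds the E-box CACGTG, a motif that is its own reverse complement, so that 1 search reads both strands. RefSeq promoters (GRCm38.p6, the assembly that mm10 names) of 250 bases before to 50 after the RefSeq start site were matched to 34 of the 39 members, the others being Bop1, Fbl, Npm1, Rrp12 and Rrs1. The motif was present in 7 of these 34 promoters, 20.6%, and in 10.6% of the 8717 promoters matched to genes tested. This is a description of sequence, with no measure of binding. The 7 stretches are shown because they are the members with an E-box in this window, Ltv1 among them. Each runs 5′ to 3′ on the strand of the gene with the motif in capitals.
Nop2 (chr6:125131811-125131840, plus strand, motif from base -60 relative to the start site): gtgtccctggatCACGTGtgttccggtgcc
Pes1 (chr11:3963965-3963994, plus strand, motif from base 3): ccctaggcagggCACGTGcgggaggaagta
Wdr43 (chr17:71616220-71616249, plus strand, motif from base 18): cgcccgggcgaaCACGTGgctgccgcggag
Tsr1 (chr11:74898092-74898121, plus strand, motif from base 25): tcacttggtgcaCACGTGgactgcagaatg
Ltv1 (chr10:13193092-13193121, minus strand, motif from base 29): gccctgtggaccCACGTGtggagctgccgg
Utp20 (chr10:88826765-88826789, minus strand, motif from base 38): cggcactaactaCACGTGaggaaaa
Mybbp1a (chr11:72441355-72441376, plus strand, motif from base 41): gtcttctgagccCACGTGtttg

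Among these 7, Nop2, an rRNA methyltransferase, had log2 fold changes of -1.42 for Day3 against Day0, 0.43 in siSbp2l and 0.64 in siPdgfra, Pes1 of -0.83, 0.43 and 0.39, Wdr43 of -1.13, 0.48 and 0.40, Tsr1 of -1.54, 0.54 and 0.79, Utp20 of -1.71, 0.63 and 0.76, and Mybbp1a of -1.59, 0.61 and 0.55. Ltv1, with -0.55, 0.33 and -0.37, was the one of the 7 that was lower in siPdgfra. All of these passed adjusted p under 0.05. Dkc1, Nop58 and Ddx21, with the largest falls at Day3, had no CACGTG in this window.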

How the data were processed

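Poly(A) RNA of 14 libraries (7 groups of 2) was sequenced from stranded libraries. The authors processed the reads with OmicSoft ArrayStudio (aligner and counting settings not given in the sources used here) and deposited FPKM values per gene on mm10 refGene models. DESeq2 was named for their own comparisons, whose 16 columns of fold changes and p-values were not used. Gene position and exon length, in a deposited column of unit other, were taken from the same table. Depth is an estimate, and it limits Nop10 in the shallowest library.

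FPKM values were filtered (at least 1 in at least 2 libraries fitted), transformed to log2(FPKM + 1) and fitted with limma 3.58.1 in R 4.3.3, 1 mean per group, empirical Bayes with trend and robust settings, after the script was tested on simulated data. Day3 against Day0 was fitted on all 14 libraries (11874 genes) and the other 5 comparisons on the 12 Day3 libraries (11650 genes), with Benjamini-Hochberg adjustment over all genes and a threshold of 0.05. No count model was used, since FPKM are not counts. No covariate or replicate block was in the design. Alternatives were 2 scalings, 2 pseudocounts, 2 filters, no trend, fewer groups, single controls, a replicate block and leaving out each library.

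The 39 members and the lists of roles, pathway genes, regulators and markers were chosen with earlier results of these data known. Named with full statistics were, in each comparison, up to 5 members a direction with the largest fold among those past the threshold, the most abundant member of each role, and the Myc network. Map2 of the neuron list was not matched by symbol.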

Additional observations from a re-analysis of the deposited data

Results flagged for a closer look

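For 5 members the effects of the 2 knockdowns differed by the test of the difference itself, siSbp2l minus siPdgfra (limma, adjusted p under 0.05). These were Ltv1, with a log2 difference of 0.70, Gnl3 with -0.54, Nolc1 with -0.51, Bysl with -0.41 and Ddx18 with 0.33. Among all genes tested 28.5% were higher and 23.4% lower in this comparison, so 5 of 39 is under the share of genes in general. The call of Bysl was lost without any one of the 4 knockdown libraries and that of Gnl3 without siPdgfra replicate 2. The call of Ddx18 was lost without replicate 1 of either knockdown or with the median-ratio scaling. Ltv1 is the one member that moved in opposite directions against the shared controls, since it was higher in siSbp2l, at 33.7 and 30.8 FPKM, and lower in siPdgfra, at 17.3 and 21.8 FPKM. Neither call of Ltv1 against the controls held under every alternative. Its rise in siSbp2l was lost with either scaling, against non-treated or mock cells alone and without siSbp2l replicate 1. Its fall in siPdgfra was lost against either NC siRNA alone and without siPdgfra replicate 1. The other 4 members differed in size, and Gnl3 passed against the controls in siPdgfra and Ddx18 in siSbp2l. The cause was not tested.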

How the results depend on the processing

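Of 2496 gene values under the alternatives, over 102 named results, 2341 kept their direction and their side of the threshold, 88 fell short of it, 62 newly passed and 5 turned direction. The turned ones were in the Myc network: Mycn (-0.38), Mxd1 (0.27) and Mxd3 (0.21) in siSbp2l against NC siRNA #1 alone, and Mxd4 against NC siRNA #2 alone in siSbp2l (-0.43) and siPdgfra (-0.54). The members' median for Day3 against Day0 moved to -1.28 with upper-quartile scaling, -1.48 with a pseudocount of 0.1 and -1.09 with 5. For siSbp2l it moved to 0.42 (median-ratio scaling), 0.45 (upper-quartile), 0.44 (pseudocount 5), 0.45 (non-treated alone) and 0.46 (mock alone). The count moved to 19 against mock alone, where 27.2% of all genes were higher. For siPdgfra it moved to 0.47 with either scaling, 0.44 (mock alone) and 0.67 (NC siRNA #1 alone). Calls between the knockdowns came to 10 with only those groups fitted (64.7% of all genes) and 15 without the non-treated group (68.6%), against 52.0% in the main fit. Calls between the NC siRNAs came to 9 (43.0%) and 9 (41.1%), against 21.0%. Lower calls of both NC siRNAs came to 14 with upper-quartile scaling (15.6%) and 17 with the non-treated group left out (19.1%), against 11.8%.

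Leaving out each library in turn kept 39 lower members for Day3 (median -1.41 to -1.33) and gave 22 to 36 higher in siSbp2l (0.50 to 0.60), 21 to 37 in siPdgfra (0.48 to 0.67), 3 to 15 between knockdowns (-0.12 to 0.022), 1 to 9 between NC siRNAs (-0.01 to 0.07) and 3 to 20 lower with NC siRNAs (-0.20 to -0.13). The share of all genes called moved over the same fits. Of all genes, 33.1% to 44.6% were lower for Day3, 20.7% to 47.7% higher in siSbp2l and 21.3% to 43.3% higher in siPdgfra. Between the knockdowns 38.2% to 68.5% were called, between the NC siRNAs 10.5% to 41.1%, and 7.6% to 23.8% were lower with NC siRNAs. Where leaving out a library leaves 1 in a group, that library is assumed to vary like the other groups. The cause of these changes was not tested. Whether the replicate numbers pair the samples is not stated in the labels or methods. Deviations of same-numbered libraries correlated between -0.38 and 0.47, and 4 of 21 pairs of groups were over 0.1, which does not decide it. With the replicate as a block the counts were 39, 32, 33 higher and 1 lower, 5, 3 and 7, in the same order. The shares of all genes were then 39.7%, 34.4%, 31.5% higher and 22.5% lower, 50.5%, 19.7% and 11.0%. Depth limits Nop10 in NC siRNA #2, at 137 and 31.0 fragments, and with 2 libraries a group small differences may be missed.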

Other observations

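The 8 members that were over 1.5-fold higher in non-treated replicate 1 than in replicate 2 were Rrs1, Fbl, Gar1, Nhp2, Nop10, Bop1, Rrp9 and Nop16, and Noc3l was over 1.5-fold higher in replicate 2. The median exon length of the 8 was 1404 bases, against 3126 bases for the other members. In the mock pair no member differed by over 1.5-fold. These groups of genes were picked from the values themselves, so no test is given.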
